A study of Mus musculus with 9 samples.

Results

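The Krüppel-like factors were followed in mouse peritoneal macrophages through 10 members: Klf2, Klf3, Klf4, Klf6, Klf7, Klf9, Klf10, Klf11, Klf13 and Klf16. They were taken by gene symbol from the 47729 gene identifiers counted in every library, and all 10 were among the 13223 genes with enough reads to be tested. RNA-seq counts came from 9 libraries in 3 groups of 3. All mice carried Cx3cr1CreERT2-IRES-EYFP/+ and Rosa26-stopfl-tdTomato/+, a tamoxifen-inducible Cre driven by Cx3cr1 together with a Cre-dependent red reporter. Every mouse was also given IL-4 (5 µg) complexed with an antibody to it (25 µg) on alternate days, beginning 4 days before harvest, so that no group shows macrophages without IL-4. Converted macrophages came from mice given 2 ml of thioglycollate, a broth that causes sterile inflammation and brings monocytes from the blood, and then held on an unbroken tamoxifen diet over 10 weeks until harvest, the diet that keeps Cre active. Monocyte-derived macrophages were harvested on day 4 after 2 ml of thioglycollate. Resident macrophages came from mice for which the labels give no further treatment.

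Krüppel-like factors are transcription factors that bind GC-rich and CACCC sequences of promoters through zinc fingers at their C-terminal end, while their N-terminal parts differ and recruit different partners. Klf2, Klf4, Klf6 and Klf7 belong to the branch that mostly activates transcription, Klf3 represses through the corepressor CtBP, and Klf9, Klf10, Klf11, Klf13 and Klf16 recruit the Sin3A corepressor complex. In macrophages Klf2 is known to restrain inflammatory activation, Klf4 works with STAT6 in the response to IL-4, and Klf6 is known to promote inflammatory gene expression.

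In converted compared with monocyte-derived macrophages, Klf2 was 2.88-fold higher, Klf4 1.82-fold higher and Klf10 1.84-fold higher, while Klf7 was 4.09-fold lower, Klf9 2.30-fold lower and Klf6 1.86-fold lower. The other 4 members did not pass the test. Between converted and resident macrophages 1 member passed, Klf6, which was 1.35-fold lower in converted macrophages. That call was lost when any converted or resident library was left out.

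The libraries held 15220884 to 20496258 reads in genes. Csf1r, the receptor for the macrophage growth factor CSF1, averaged 1120.2 ± 42.9 CPM (reads scaled to library size) in converted, 1095 ± 55.8 CPM in monocyte-derived and 1105 ± 37.7 CPM in resident libraries (SD, n = 3 each). Gata6, which marks resident cavity macrophages, averaged 161 ± 24.7, 1.43 ± 0.765 and 160 ± 2.05 CPM in the same order. Csf1r does not stand for all 8 macrophage markers listed. Of these, 3 were higher and 2 lower in converted than in monocyte-derived macrophages, and 0 passed between converted and resident ones. The shares of all genes that passed either way in these comparisons were 50.7% and 6.07%, in that order. Adgre1 averaged 3077 CPM in converted, 343 CPM in monocyte-derived and 2978 CPM in resident libraries, and Lyz2 averaged 576, 1837 and 437 CPM in that order. The Y-linked gene Ddx3y had no read in monocyte-derived libraries, against 91.5 ± 6.09 CPM in converted and 90.6 ± 4.10 CPM in resident libraries, so sex, recent thioglycollate and group cannot be told apart in any comparison with monocyte-derived macrophages. The tamoxifen diet likewise cannot be told apart from the converted group, nor, in the comparison with resident macrophages, can the earlier thioglycollate. The monocyte-derived libraries differed most among themselves, with a chi-square over degrees of freedom of 35.0 to 102.9 between pairs, against 17.1 to 24.1 in converted and 5.99 to 9.16 in resident pairs. Whether the 3 libraries of a group are separate mice is not stated, and the p-values below refer to the spread among libraries, which may be technical. In bulk RNA, fewer cells that express a gene and less of its RNA per cell cannot be told apart.

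Markers of other cells moved with the groups. The 14 B-cell markers summed to 72.8 to 145 CPM in converted, 24.9 to 51.2 CPM in monocyte-derived and 817 to 1093 CPM in resident libraries, and all 14 had reads in each group. The most abundant of them, Ms4a1, averaged 17.7 ± 11.3 CPM in converted, 4.00 ± 1.94 CPM in monocyte-derived and 214 ± 31.1 CPM in resident libraries. The 16 T- and NK-cell markers summed to 8.27 to 17.3 CPM in converted, 28.4 to 167 CPM in monocyte-derived and 62.6 to 90.8 CPM in resident libraries. Gzma, the highest of them over all libraries, averaged 1.44 ± 0.0903 CPM in converted libraries, had 12.4, 20.6 and 74.2 CPM in monocyte-derived libraries 1 to 3 and averaged 14.6 ± 3.70 CPM in resident libraries. Cd2 averaged 3.74 ± 1.68 CPM in converted, 7.29 ± 4.94 CPM in monocyte-derived and 22.1 ± 1.07 CPM in resident libraries, above Gzma in converted and resident ones. Klf2, Klf3 and Klf13 are also expressed in lymphocytes, and the part of these cells in the values below was not tested. Among 10 neutrophil markers, the 7 tested were all higher in monocyte-derived than in resident macrophages, and Csf3r led the list at 12.6 ± 5.16 CPM in converted, 51.0 ± 22.8 CPM in monocyte-derived and 15.9 ± 0.680 CPM in resident libraries. The 8 dendritic-cell markers summed to 20.98 to 81.0 CPM in converted, 17.6 to 62.5 CPM in monocyte-derived and 168 to 184 CPM in resident libraries, led by Cd209a. Most called ones did not follow that sum. Of the 7 tested, 3 were higher and 1, Cd209a, lower in monocyte-derived than in resident macrophages. In converted macrophages 0 were higher and 4 lower than in monocyte-derived ones, and 0 passed against resident ones. Of 7 endothelial markers 1 was tested, Pecam1, which averaged 71.4 ± 6.36 CPM in converted, 119 ± 13.7 CPM in monocyte-derived and 69.8 ± 4.78 CPM in resident libraries. All 7 together averaged 71.7, 120.5 and 70.3 CPM in that order, so nearly all of the sum was Pecam1. In each group 2 of the 7 had no read. The 10 eosinophil and mast-cell markers summed to 3.38 to 4.68 CPM in converted, 8.09 to 18.4 CPM in monocyte-derived and 17.9 to 23.4 CPM in resident libraries. Of the 6 tested, 4 were lower in converted than in monocyte-derived macrophages and 1, Il5ra, was higher. These marker counts stand beside 50.7% of all genes called either way in both comparisons with monocyte-derived macrophages. Between converted and resident macrophages that share was 6.07%. Col3a1, the leading stromal marker, averaged under 2 CPM in each group.

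Promoter sequence is shown for Klf2, Klf4, Klf6 and Klf9, called members whose matched window reaches far enough before the annotated gene start, so that the regulatory elements upstream of them can be read. RefSeq windows on GRCm38.p6 running from 250 bases before to 50 bases after the start were found for 8 of the 10 members, all but Klf10 and Klf16. Each line gives the stretch of the window that lies before the annotated first base of the gene, on the gene's own strand. The stretch is cut to the first 250 bases of the window at most, which for Klf4 leaves out the bases nearest the gene. Capitals mark matches to any of 8 motifs searched on both strands.
Klf2, chr8:72318812-72319032, plus strand: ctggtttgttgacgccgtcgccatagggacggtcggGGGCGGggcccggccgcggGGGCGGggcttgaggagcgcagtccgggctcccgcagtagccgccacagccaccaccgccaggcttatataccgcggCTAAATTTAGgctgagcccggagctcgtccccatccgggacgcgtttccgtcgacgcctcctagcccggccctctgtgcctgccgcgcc
Klf4, chr4:55532476-55532725, minus strand: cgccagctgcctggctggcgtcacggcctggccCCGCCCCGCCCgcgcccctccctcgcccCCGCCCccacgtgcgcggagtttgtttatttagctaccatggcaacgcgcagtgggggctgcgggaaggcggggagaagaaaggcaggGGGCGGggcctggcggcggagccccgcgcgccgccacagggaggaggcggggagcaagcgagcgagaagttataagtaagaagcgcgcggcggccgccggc
Klf6, chr13:5861239-5861481, plus strand: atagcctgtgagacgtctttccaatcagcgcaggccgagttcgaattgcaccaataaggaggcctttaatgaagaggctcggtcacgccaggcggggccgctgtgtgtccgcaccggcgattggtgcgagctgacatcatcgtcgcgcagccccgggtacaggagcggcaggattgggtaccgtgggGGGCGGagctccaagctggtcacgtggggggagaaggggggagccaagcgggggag
Klf9, chr19:23140976-23141225, plus strand: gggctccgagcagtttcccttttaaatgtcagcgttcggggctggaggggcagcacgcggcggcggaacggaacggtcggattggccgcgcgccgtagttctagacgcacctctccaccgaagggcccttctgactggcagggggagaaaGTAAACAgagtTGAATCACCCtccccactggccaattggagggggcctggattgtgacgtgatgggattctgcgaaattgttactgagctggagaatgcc

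The motifs were the GC box (GGGCGG), the CACCC box (CACCC), the AP-1 site (TGANTCA), the CRE (TGACGTCA), the FoxO site (GTAAACA), the STAT6 site, the MEF2 site and the CArG box. A GC box occurred in 35.7% and a CACCC box in 57.5% of all 32851 RefSeq windows of 300 bases, so both are common. The Klf2 stretch holds GC boxes 214 and 195 bases before the RefSeq start. It also holds the MEF2 site, the element bound by the MEF2 factors that the kinase ERK5 activates, 118 bases before the start. That motif occurred in 0.557% of all windows, and of the 8 matched members Klf2 alone had it. The Klf4 stretch holds 4 GC boxes, of which the first pair overlap, and the Klf6 stretch holds 1, 63 bases before the start. The Klf9 stretch holds no GC box. It holds a FoxO site 100 bases before the start, a motif found in 3.65% of windows, and an AP-1 site 89 bases before the start, found in 7.81% of windows, which overlaps a CACCC box. The Klf7 window lies wholly inside the annotated gene and is not printed. It holds a GC box 217 bases and CACCC boxes 138, 131 and 111 bases before the RefSeq start. The window of Klf3, called in monocyte-derived over resident macrophages, holds 6 GC boxes and 5 CACCC boxes. It is not printed either, as too little of it lies before the annotated gene start. A match is a run of letters and not a measured binding site.

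Of the activating members, Klf2 (ENSMUSG00000055148, chr8:72319033-72321656) was the most abundant of the family in every library per length. It had 608, 533 and 757 CPM in converted, 181, 214 and 265 CPM in monocyte-derived and 689, 666 and 676 CPM in resident libraries. Every converted and resident library lay above every monocyte-derived one, and the 3 resident libraries lay within the spread of the converted ones. Klf2 was higher in converted than in monocyte-derived macrophages by 1.52 ± 0.16 on the log2 scale (SE, adjusted p = 3.09e-05, edgeR's quasi-likelihood test with Benjamini-Hochberg adjustment). It was lower in monocyte-derived than in resident macrophages, at a log2 difference of -1.62 ± 0.16 (adjusted p = 2.07e-05). Between converted and resident macrophages the log2 difference was -0.10 (adjusted p = 0.774), with a 95% confidence interval of -0.44 to 0.24.

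Klf4 (ENSMUSG00000003032, chr4:55527143-55532466), needed for monocyte differentiation in mice, had 318, 380 and 484 CPM in converted, 235, 199 and 217 CPM in monocyte-derived and 467, 495 and 459 CPM in resident libraries. The monocyte-derived libraries lay below all others, and 1 converted library reached the resident range. The log2 difference was 0.86 ± 0.14 for converted over monocyte-derived (adjusted p = 0.000562) and -1.13 ± 0.14 for monocyte-derived over resident (adjusted p = 0.000107). For converted over resident it was -0.26 ± 0.14 (adjusted p = 0.316), and its 95% interval of -0.57 to 0.04 reaches to both sides of 0.

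Klf6 (ENSMUSG00000000078, chr13:5861482-5870394), a rapidly induced factor that works with NF-kappaB in inflammatory macrophages, had 196, 156 and 192 CPM in converted, 299.7, 332 and 378 CPM in monocyte-derived and 251, 237 and 249 CPM in resident libraries. The 3 groups did not overlap: converted libraries were lowest, resident ones intermediate and monocyte-derived ones highest. Its log2 difference was -0.89 ± 0.11 for converted over monocyte-derived (adjusted p = 0.000116) and 0.45 ± 0.11 for monocyte-derived over resident (adjusted p = 0.00672). The converted macrophages differed from the resident ones by -0.44 ± 0.11 (adjusted p = 0.0487). Leaving out each converted or resident library in turn gave adjusted p-values of 0.0862 to 0.183, and blocking on the replicate number gave 0.0649. The differences stayed between -0.50 and -0.34 over all 18 alternatives, and the adjusted p between 0.00764 and 0.183.

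Klf7 (ENSMUSG00000025959, chr1:64029447-64122282), best known for its part in the development of neurons, was the least abundant member per length in all 3 groups. It had 6.18, 7.51 and 9.06 CPM in converted, 36.6, 24.3 and 32.1 CPM in monocyte-derived and 10.3, 6.82 and 8.42 CPM in resident libraries. The monocyte-derived libraries stood above all others, while converted and resident ones overlapped. Klf7 had the largest fold change of the 10 members, with a log2 difference of -2.03 ± 0.21 for converted over monocyte-derived (adjusted p = 3.76e-05) and 1.86 ± 0.21 for monocyte-derived over resident (adjusted p = 6.33e-05). The value for converted over resident was -0.17 ± 0.22 (adjusted p = 0.716). Of its exon bases, 3196 are shared with Gm26649 on the opposite strand. Gm26649 was listed with 0 reads over the 9 libraries, and how reads in the shared stretch were counted is not given in the sources used here.

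**Figure D1:**
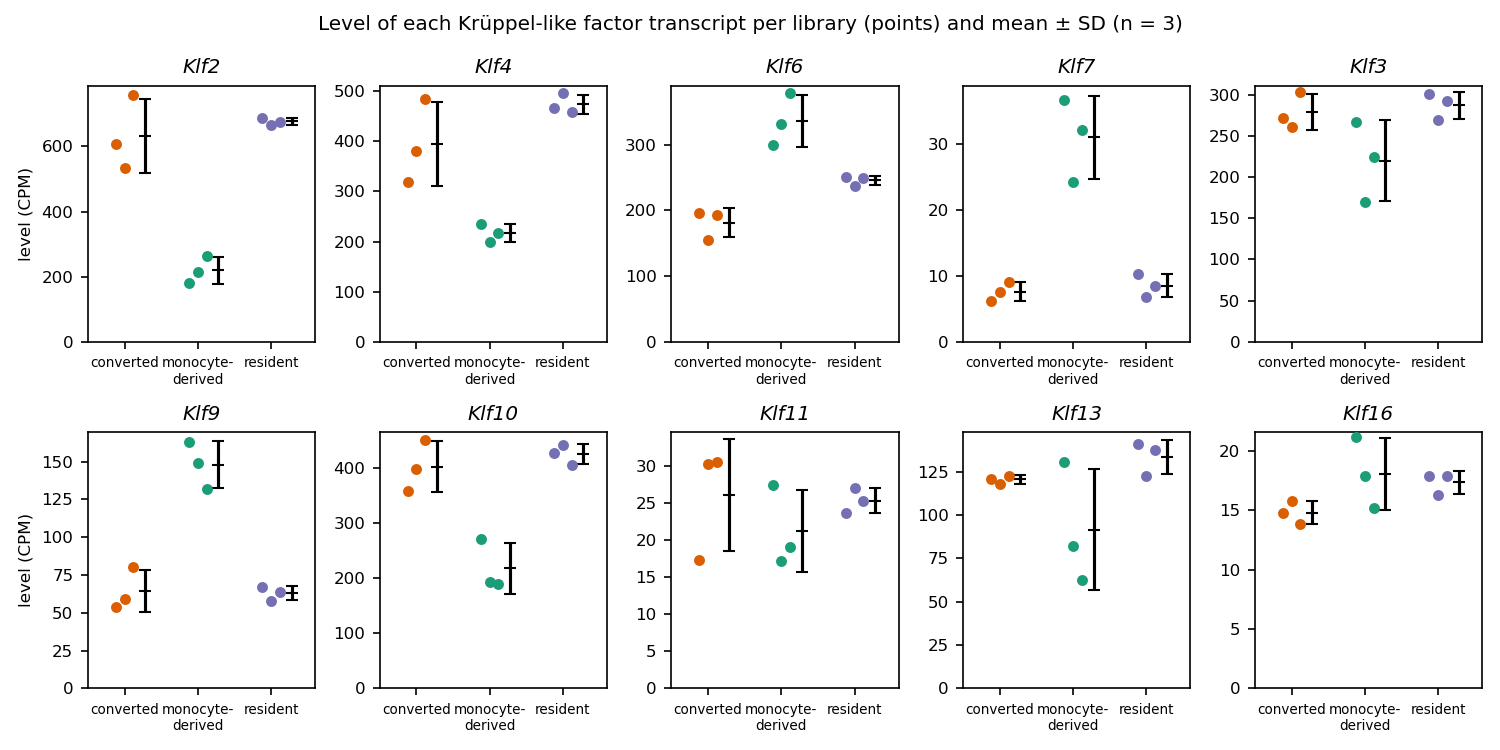
Levels of the 10 members in CPM in the 3 converted, 3 monocyte-derived and 3 resident libraries, a panel per member, with points for libraries and a bar with whiskers for the mean ± SD. The monocyte-derived points lie apart from both other groups for Klf2, Klf4, Klf6, Klf7, Klf9 and Klf10, and for Klf6 the converted points also lie below the resident ones.

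Klf3 (ENSMUSG00000029178, chr5:64803388-64832901), the member that binds CtBP, had 272, 261 and 303 CPM in converted, 267, 169 and 224 CPM in monocyte-derived and 301, 269 and 292 CPM in resident libraries. The monocyte-derived libraries overlapped the converted ones and lay just below the resident ones. For converted over monocyte-derived the log2 difference was 0.34 ± 0.14 (adjusted p = 0.0738), and without monocyte-derived library 1 it was 0.50 (adjusted p = 0.00482). For monocyte-derived over resident it was -0.39 ± 0.14 (adjusted p = 0.0478), a call lost under 10 of 18 alternatives, with adjusted p between 0.00306 and 0.126. Leaving out any library other than monocyte-derived library 1 ended that call. Of its exon bases, 404 are shared with Gm20033 on the opposite strand, which had 133 reads over the 9 libraries, against 43755 for Klf3. Between converted and resident macrophages it was -0.04 ± 0.14 (adjusted p = 0.899).

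Among the Sin3A-binding members, Klf9 (ENSMUSG00000033863, chr19:23141226-23168134), a target of the glucocorticoid and thyroid hormone receptors, had 54.1, 58.9 and 80.2 CPM in converted, 163, 149 and 132 CPM in monocyte-derived and 66.8, 57.8 and 63.9 CPM in resident libraries. All 3 monocyte-derived libraries exceeded all 6 others, among which converted and resident ones overlapped. Klf9 had a log2 difference of -1.20 ± 0.15 for converted over monocyte-derived (adjusted p = 9.79e-05) and 1.23 ± 0.15 for monocyte-derived over resident (adjusted p = 8.29e-05). For converted over resident the value was 0.03 ± 0.15 (adjusted p = 0.925).

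Klf10 (ENSMUSG00000037465, chr15:38291463-38300706), first described as a gene induced early by TGF-beta, had 358, 399.7 and 451 CPM in converted, 272, 194 and 189.9 CPM in monocyte-derived and 428, 443 and 406 CPM in resident libraries. The monocyte-derived libraries lay below all others. The log2 difference was 0.88 ± 0.14 for converted over monocyte-derived (adjusted p = 0.000579) and -0.96 ± 0.14 for monocyte-derived over resident (adjusted p = 0.000348). The value between converted and resident macrophages was -0.08 ± 0.14 (adjusted p = 0.805).

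The remaining members of this branch passed in no comparison. Klf13 (ENSMUSG00000052040, chr7:63886351-63938915), an activator of Ccl5 in T cells, had 121, 118 and 123 CPM in converted, 130.4, 82.3 and 62.4 CPM in monocyte-derived and 141, 122 and 137 CPM in resident libraries. Monocyte-derived library 1 lay within the range of the other groups, and the other two lay below it. The log2 difference was 0.40 ± 0.22 for converted over monocyte-derived (adjusted p = 0.157) and -0.54 ± 0.22 for monocyte-derived over resident (adjusted p = 0.0618). Without monocyte-derived library 1 these were 0.74 (adjusted p = 0.000378) and -0.88 (adjusted p = 0.000119). For monocyte-derived over resident the difference also passed with the replicate block (adjusted p = 0.0416), with limma-voom (0.0330) and with DESeq2 (0.0326).

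Klf11 (ENSMUSG00000020653, chr12:24651274-24662789), another gene that TGF-beta induces, had 17.4, 30.4 and 30.6 CPM in converted, 27.5, 17.2 and 19.1 CPM in monocyte-derived and 23.7, 27.1 and 25.3 CPM in resident libraries, and all groups overlapped. Its adjusted p-values were 0.320 for converted over monocyte-derived, 0.942 for converted over resident and 0.396 for monocyte-derived over resident. Without converted library 1 the first difference passed at 0.52 on the log2 scale (adjusted p = 0.0497). Klf16 (ENSMUSG00000035397, chr10:80567124-80577321) had 14.8, 15.8 and 13.8 CPM in converted, 21.2, 17.9 and 15.2 CPM in monocyte-derived and 17.9, 16.3 and 17.9 CPM in resident libraries. The converted libraries lay below the resident ones without overlap, but that log2 difference of -0.23 ± 0.14 did not pass (adjusted p = 0.390). Without monocyte-derived library 3 the difference of converted over monocyte-derived passed at -0.40 (adjusted p = 0.0261), against -0.29 ± 0.14 with all libraries (adjusted p = 0.107).

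For the family as a whole, 3 of 10 members were higher and 3 lower in converted than in monocyte-derived macrophages. Of all 13223 genes tested, 25.8% were called higher, 24.9% lower and 50.7% either way in that comparison, so a count of 6 of 10 is near the background. Over the 3 groups jointly, 6 members passed, beside 54.7% of all genes. The median size of the members' log2 difference was 0.87, beside 0.47 over all genes. In monocyte-derived over resident macrophages, 3 members were higher (Klf6, Klf7 and Klf9) and 4 lower (Klf2, Klf3, Klf4 and Klf10). The background there was 24.9% higher, 25.7% lower and 50.7% either way, with a median size of 0.75 for the members and 0.46 for all genes. These 2 comparisons share the monocyte-derived libraries. In converted over resident macrophages edgeR called 0 members higher and 1 lower, where 1.82% of all genes were called higher, 4.26% lower and 6.07% either way; Klf6 alone had an unadjusted p under 0.05, and limma-voom and DESeq2 also called no member higher. The median size of the difference was 0.12 for the members and 0.19 for all genes. Libraries did not overlap for 6 members between converted and monocyte-derived, 2 between converted and resident and 7 between monocyte-derived and resident groups, beside 56.3%, 37.3% and 59.5% of all genes.

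**Figure D2:**
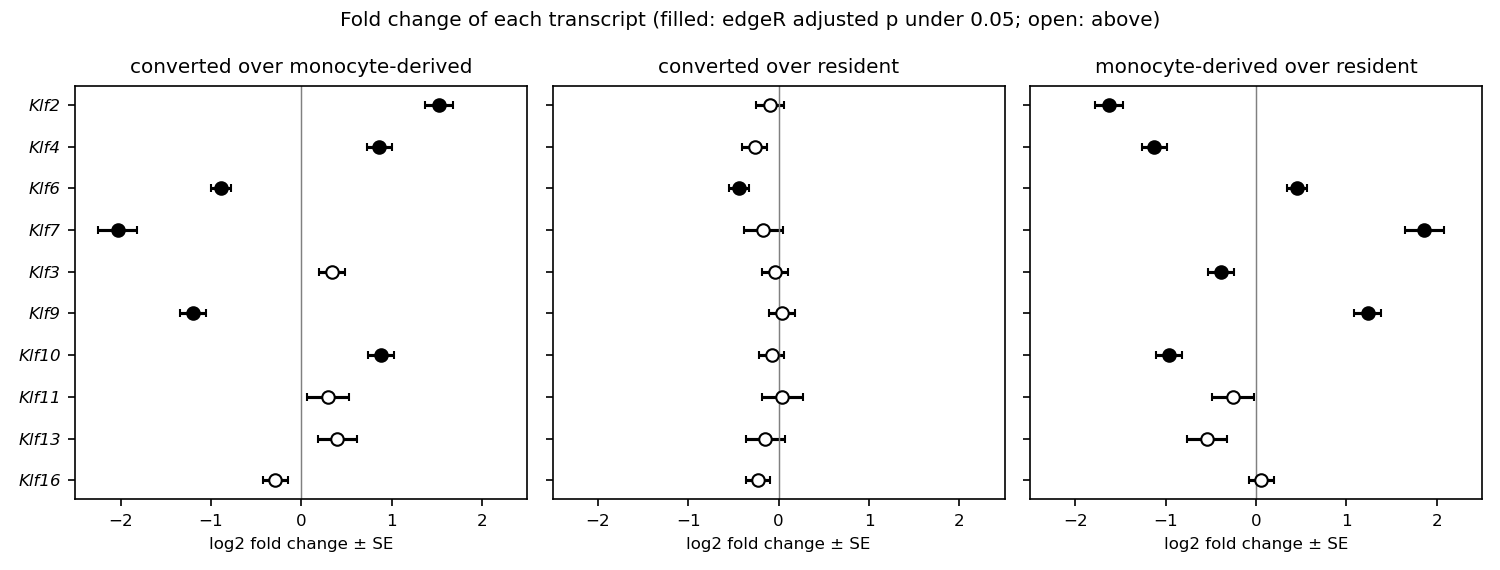
Log2 fold changes of the 10 members, with whiskers for ± SE, in a panel each for converted over monocyte-derived, converted over resident and monocyte-derived over resident macrophages; filled points passed at an adjusted p under 0.05. Filled points number 6, 1 and 7, and the values for converted over resident lie between -0.44 and 0.04.

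Levels of different members were compared per length, as CPM per kilobase of exon (RPKM). Summed over the 10 members, the level was 676 ± 102 RPKM in converted, 397 ± 21.5 RPKM in monocyte-derived and 749 ± 8.65 RPKM in resident libraries (SD, n = 3 each). Klf2 made up 50.5 ± 2.80% of this sum in converted, 30.0 ± 5.10% in monocyte-derived and 48.9 ± 0.624% in resident libraries. Klf6 made up 6.16 ± 0.858%, 19.3 ± 2.05% and 7.47 ± 0.230% in the same order, and Klf9 1.97 ± 0.156%, 7.76 ± 1.02% and 1.74 ± 0.120%. The share of Klf4 was 19.1 ± 2.07% in converted, 17.9 ± 1.09% in monocyte-derived and 20.7 ± 0.847% in resident libraries. The ratio of Klf2 to Klf4 per length was 2.68 ± 0.430 in converted, 1.69 ± 0.377 in monocyte-derived and 2.36 ± 0.123 in resident libraries.

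In converted macrophages the order per length was Klf2, Klf4, Klf10, Klf6, Klf3, Klf13, Klf9, Klf11, Klf16 and Klf7. Neighbours whose libraries overlapped there were Klf4 with Klf10, Klf13 with Klf9, and Klf11 with Klf16. In monocyte-derived macrophages Klf6 stood in the second place, at 76.7 ± 9.01 RPKM beside 71.2 ± 5.85 RPKM for Klf4, with overlapping libraries, and Klf9 stood above Klf3. After Klf2, Klf6 and Klf4 came Klf10, Klf9, Klf3, Klf13, Klf16, Klf11 and Klf7, where Klf3 with Klf13, Klf16 with Klf11 and Klf11 with Klf7 overlapped. In resident macrophages the order was that of the converted ones, except that Klf16 stood above Klf11, a pair whose libraries overlapped.

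**Figure D3:**
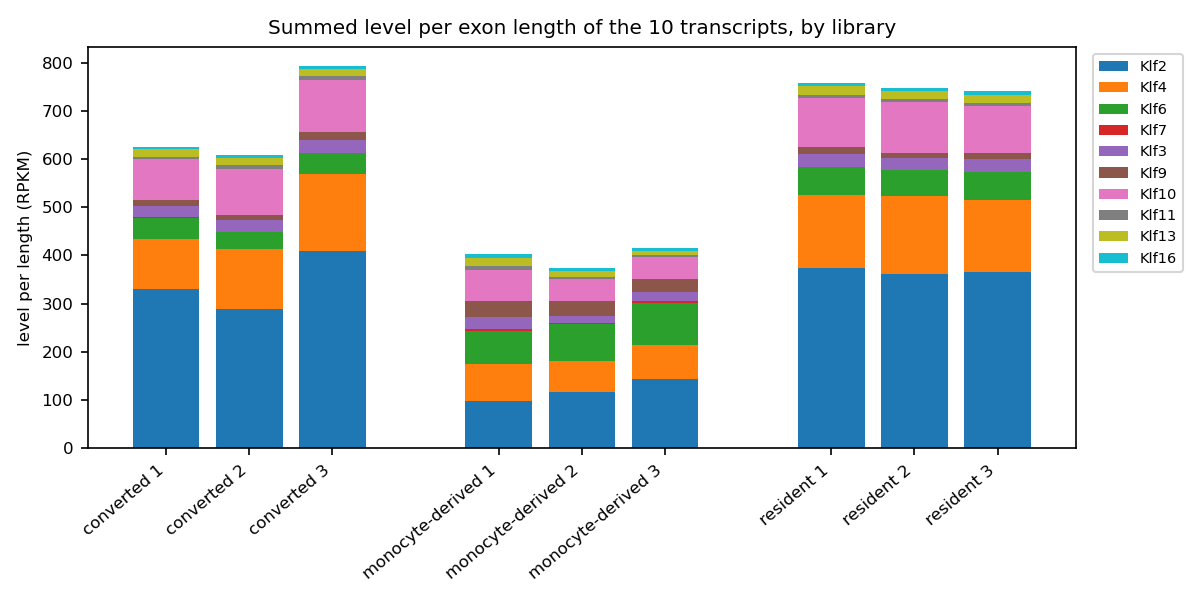
Stacked bars of the members' levels per length (RPKM) in each of the 9 libraries, grouped as converted, monocyte-derived and resident. The summed level is 397 RPKM on average in monocyte-derived libraries, against 676 RPKM in converted and 749 RPKM in resident ones, and Klf2 takes the largest share in every bar.

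Other genes of the family were scarce. Of the 7 further Krüppel-like factor genes, Klf14 and Klf17 had no read, and Klf1, Klf5 and Klf15 had 41, 43 and 14 reads over the 9 libraries and were not tested. Klf8, a CtBP-binding member, had 395 reads in converted, 250 in monocyte-derived and 304 in resident libraries and passed in no comparison. Klf12, also CtBP-binding, had 6, 6 and 54 reads in the same order. It was lower in converted than in resident macrophages, at a log2 difference of -3.07 ± 0.69, (adjusted p = 0.0315) and lower in monocyte-derived than in resident ones, at -2.93 ± 0.70 (adjusted p = 0.00572), at levels under 1 CPM. B-cell markers were also highest in the resident libraries, and their part in the Klf12 difference was not tested. Of the Sp factors, the nearest relatives of the family, 4 of 9 were tested, and none passed in converted over monocyte-derived or converted over resident macrophages by edgeR, with an unadjusted p under 0.05 for Sp3 alone, in the comparison with resident macrophages. Sp3 and Sp2 were the most abundant, and for converted over monocyte-derived they differed by -0.16 ± 0.09 and -0.33 ± 0.18. Sp3 passed in monocyte-derived over resident macrophages, at a log2 difference of 0.47 ± 0.09 (adjusted p = 0.00184), with 130 ± 12.6 CPM in monocyte-derived and 94.0 ± 4.77 CPM in resident libraries.

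Krüppel-like factors act through cofactors, and 15 of these were tested. In this list, 5 were higher and 2 lower in converted than in monocyte-derived macrophages, 2 higher and 0 lower in converted than in resident ones, and 2 higher and 1 lower in monocyte-derived than in resident ones. Of all genes, 50.7%, 6.07% and 50.7% were called either way in these comparisons, in that order. The acetyltransferase Kat2b averaged 23.5 ± 1.91 CPM in converted, 10.5 ± 3.41 CPM in monocyte-derived and 23.3 ± 1.07 CPM in resident libraries. Its log2 difference was 1.15 ± 0.21 for converted over monocyte-derived (adjusted p = 0.00119). The scaffold Sin3a was higher in converted than in monocyte-derived macrophages by 0.40 ± 0.11 (adjusted p = 0.00978). The histone-binding subunits Rbbp4 and Rbbp7 were higher in converted macrophages in both comparisons, by 0.41 ± 0.09 (adjusted p = 0.0262) and 0.42 ± 0.10 (adjusted p = 0.0436) over resident ones. The corepressor Ctbp1 had 269 ± 5.47 CPM in converted, 263 ± 38.6 CPM in monocyte-derived and 259 ± 7.80 CPM in resident libraries and was not called.

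Upstream of Klf2 and Klf4, the ERK5 cascade activates MEF2 factors in endothelial cells. Of its 7 listed genes, 0 were higher and 2 lower in converted than in monocyte-derived macrophages, with a median log2 difference of -0.14 against -0.01 over all genes. That comparison called 50.7% of all genes either way. Mapk7, which encodes ERK5, averaged 24.4 ± 2.19 CPM in converted, 50.3 ± 5.03 CPM in monocyte-derived and 26.3 ± 1.11 CPM in resident libraries, and was lower in converted than in monocyte-derived macrophages, at -1.04 ± 0.11 (adjusted p = 3.14e-05). The other called gene was Mef2a, at -0.52 ± 0.15 (adjusted p = 0.0173). Against resident macrophages, monocyte-derived ones were higher in Mapk7 (0.93 ± 0.11) and Mef2a (0.81 ± 0.15), and lower in Mef2c (-0.69 ± 0.13) and Mef2d (-0.30 ± 0.08). No gene of the list passed between converted and resident macrophages by edgeR, where the most abundant, Mef2a and Mef2d, differed by 0.29 ± 0.15 and -0.14 ± 0.08. Mef2c alone had an unadjusted p under 0.05 there. Foxo1, an activator of Klf2 in T cells, averaged 32.4 ± 4.44 CPM in converted, 20.4 ± 5.86 CPM in monocyte-derived and 33.7 ± 4.30 CPM in resident libraries. It was higher in converted than in monocyte-derived macrophages by 0.66 ± 0.20 (adjusted p = 0.0191).

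Most genes of the TGF-beta pathway, which induces Klf10 and Klf11, differed between converted and monocyte-derived macrophages. Of 14, 5 were higher and 7 lower, beside 50.7% of all genes called either way. The receptor Tgfbr2 averaged 104 ± 10.6 CPM in converted, 52.1 ± 17.3 CPM in monocyte-derived and 110.2 ± 12.5 CPM in resident libraries, and the signal transducer Smad3 averaged 60.4 ± 11.2, 7.14 ± 1.85 and 51.5 ± 2.87 CPM in the same order. Their log2 differences of converted over monocyte-derived were 1.0 ± 0.20 (adjusted p = 0.00255) and 3.09 ± 0.19 (adjusted p = 1.09e-06). The ligand Tgfb2 averaged 51.3 ± 22.2 CPM in converted and 40.9 ± 5.53 CPM in resident libraries, against 5 reads over the 3 monocyte-derived ones. The inhibitory Smad7 (-3.63 ± 0.36, adjusted p = 2.61e-05), the Smad repressor Skil (-3.91 ± 0.39, adjusted p = 3.09e-05) and the ligand Tgfb3 (-4.08 ± 0.75, adjusted p = 0.00133) were lower in converted macrophages. In monocyte-derived over resident macrophages 6 genes were higher, led by Tgfb3 (3.22 ± 0.69), and 3 lower, led by Tgfb2.

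**Figure D4:**
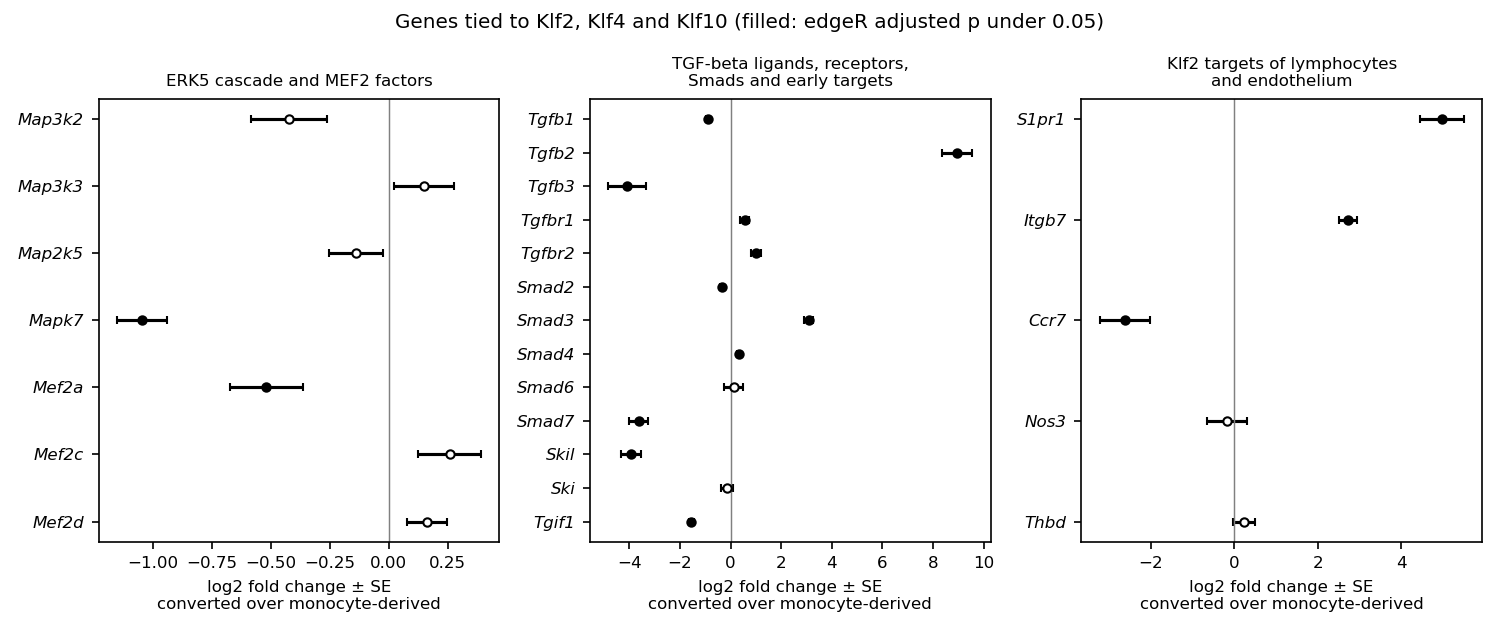
Log2 fold changes of converted over monocyte-derived macrophages, with whiskers for ± SE, for most genes of the ERK5 and MEF2 list, the TGF-beta and Smad list and the list of Klf2 targets; filled points passed at an adjusted p under 0.05. Smad3 (3.09) and Smad7 (-3.63) lie on opposite sides, and Mapk7 lies at -1.04. The farthest point is Tgfb2, of which the monocyte-derived libraries held 5 reads.

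Klf9 is a glucocorticoid receptor target, and 7 genes of that response were listed. In converted over monocyte-derived macrophages 2 were higher and 2 lower, beside 50.7% of all genes called either way. Per1, a clock gene, averaged 13.6 ± 4.51 CPM in converted, 35.5 ± 11.9 CPM in monocyte-derived and 19.1 ± 1.57 CPM in resident libraries, and like Klf9 was lower in converted macrophages, at -1.39 ± 0.27 (adjusted p = 0.00190). Tsc22d3 was lower, at -0.42 ± 0.12 (adjusted p = 0.0176), while Zbtb16 (2.24 ± 0.40, adjusted p = 0.00111) and the phosphatase Dusp1 (1.69 ± 0.18, adjusted p = 3.58e-05) were higher. For monocyte-derived over resident macrophages, 1 gene was higher and 2 lower. Between converted and resident macrophages Dusp1 alone passed, at -0.79 ± 0.17 (adjusted p = 0.0274).

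Genes known as Klf2 targets in lymphocytes or endothelium were followed as a list. Of 6, 3 were higher and 1 lower in converted than in monocyte-derived macrophages, beside 50.7% of all genes called either way. S1pr1, a receptor that guides cells out of tissues, averaged 81.4 ± 14.8 CPM in converted, 2.68 ± 2.87 CPM in monocyte-derived and 64.4 ± 2.96 CPM in resident libraries, at a log2 difference of 4.98 ± 0.53 for converted over monocyte-derived (adjusted p = 5.21e-05). Itgb7, an integrin chain, averaged 1133 ± 113 CPM, 172 ± 58.0 CPM and 1193 ± 82.9 CPM in the same order, at 2.72 ± 0.22 (adjusted p = 7.08e-06). The chemokine receptor Ccr7 was lower in converted than in monocyte-derived macrophages, at -2.63 ± 0.60 (adjusted p = 0.00520), and lower than in resident ones, at -2.44 ± 0.60 (adjusted p = 0.0458), at 6.69 CPM or less in each group. S1pr1 (-4.64 ± 0.53) and Itgb7 (-2.79 ± 0.22) were lower in monocyte-derived than in resident macrophages. Ccl5, the Klf13 target in T cells, averaged 0.316 ± 0.137 CPM in converted and 2.08 ± 0.291 CPM in resident libraries, and had 2.88, 2.37 and 13.1 CPM in monocyte-derived libraries 1 to 3. The third of these also had the highest sum of T- and NK-cell markers, at 167 CPM, against 28.4 and 44.6 CPM in the other two. Ccl5 was lower in converted than in monocyte-derived macrophages, at -4.23 ± 0.75 (adjusted p = 0.00110), and at -3.03 ± 0.36 (adjusted p = 0.000154) without monocyte-derived library 3. Against resident macrophages the difference was -2.69 and did not pass (adjusted p = 0.0767), but it passed without any one of the monocyte-derived libraries (adjusted p = 0.00317 without library 3). Of the 14 tested T- and NK-cell markers, 0 were higher and 6 lower in converted than in monocyte-derived macrophages. Against resident macrophages 0 were higher and 8 lower, beside 6.07% of all genes called either way. The part of these cells in the Ccl5 values was not tested.

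Klf4 acts with STAT6 in IL-4-driven activation. Of 9 genes of that response, 2 were higher and 6 lower in converted than in monocyte-derived macrophages, while Klf4 itself was higher. Of all genes, 50.7% were called either way there, and 6.07% between converted and resident macrophages. Mrc1, the mannose receptor, averaged 39.1 ± 13.1 CPM in converted, 886 ± 56.6 CPM in monocyte-derived and 71.3 ± 19.9 CPM in resident libraries. Pdcd1lg2, which encodes the checkpoint ligand PD-L2, averaged 1.02 ± 0.118, 99.2 ± 24.8 and 7.38 ± 2.68 CPM in the same order. The log2 differences of converted over monocyte-derived were -4.50 ± 0.30 for Mrc1 (adjusted p = 2.41e-06), -6.59 ± 0.35 for Pdcd1lg2 (adjusted p = 6.23e-07) and -5.23 ± 0.29 for the chemokine Ccl24 (adjusted p = 8.24e-07). The higher genes were Chil3 (1.63 ± 0.21, adjusted p = 0.000152) and Retnla (1.02 ± 0.37, adjusted p = 0.0423). Between converted and resident macrophages 0 were higher and 2 lower, Pdcd1lg2 (-2.85 ± 0.36, adjusted p = 0.00307) and the IL-4 receptor chain Il4ra (-1.01 ± 0.12, adjusted p = 0.00219). Relative to resident macrophages, in monocyte-derived ones 5 were higher, led by Pparg (6.12 ± 0.40), and 2 lower, Chil3 and Retnla.

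Klf2 and Klf4 are also tied to the quiet removal of dying cells by resident macrophages. Of 11 tested receptors and bridging molecules for dying cells, 4 were higher and 2 lower in converted than in monocyte-derived macrophages. That comparison called 50.7% of all genes either way. Timd4, a receptor for phosphatidylserine, averaged 105 ± 17.7 CPM in converted, 1.003 ± 0.595 CPM in monocyte-derived and 192 ± 6.01 CPM in resident libraries. It was the one gene of the list that passed between converted and resident macrophages, at -0.87 ± 0.18 (adjusted p = 0.0238). The bridging protein Pros1 (1.81 ± 0.18) and the adhesion receptor Adgrb1 (4.60 ± 0.78) were higher in converted than in monocyte-derived macrophages, and the scavenger receptor Cd36 (-2.28 ± 0.46) and the bridging protein Gas6 (-2.20 ± 0.55) were lower. In monocyte-derived over resident macrophages 3 were higher, led by Cd36 (2.93 ± 0.47), and 5 lower, led by Timd4 (-7.61 ± 0.27). Of 5 tested genes of nucleic-acid-sensing Toll-like receptors, 1 was higher and 3 lower in converted than in monocyte-derived macrophages. Tlr8 led the lower ones, at -2.06 ± 0.16 (adjusted p = 4.49e-06), and Tlr3 was higher, at 1.27 ± 0.38 (adjusted p = 0.0189). The share of all genes called either way there was 50.7%. Between converted and resident macrophages Tlr13 alone passed, at 0.57 ± 0.13 (adjusted p = 0.0324). In monocyte-derived over resident macrophages 3 were higher, led by Tlr8 (2.67 ± 0.16), and 1 lower, Tlr3 (-1.37 ± 0.38).

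Several members of the family, Klf2, Klf4, Klf6 and Klf10 among them, are known to respond rapidly to stimulation, and immediate early genes were therefore set beside them. The 24 listed immediate early and heat shock genes, none of which is a Krüppel-like factor, summed to 2273 to 3099 CPM in converted, 2749 to 3310 CPM in monocyte-derived and 5029 to 5129 CPM in resident libraries. Of the 22 tested, 0 were higher and 11 lower in converted than in resident macrophages, led by Egr1 (-3.57 ± 0.28, adjusted p = 0.000612), Fosb (-2.94 ± 0.32, adjusted p = 0.00168) and Fos (-1.68 ± 0.27, adjusted p = 0.00824). Of all genes, 1.82% were called higher and 4.26% lower there. At least 1 fit with a library left out ended the call of Btg2, Dusp1, Ier3, Junb and Zfp36 in that comparison. Klf6 was lower in the same comparison. In converted over monocyte-derived macrophages 5 were higher, led by Dusp1, and 11 lower, led by Egr2 (-6.04 ± 0.40, adjusted p = 2.43e-06). Monocyte-derived over resident macrophages gave 6 higher, led by Egr2 (4.89 ± 0.37), and 10 lower, led by Fosb (-3.93 ± 0.35). Both comparisons with monocyte-derived macrophages called 50.7% of all genes either way. The part of the immediate early response in the levels of Klf2, Klf4, Klf6 and Klf10 was not tested.

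**Figure D5:**
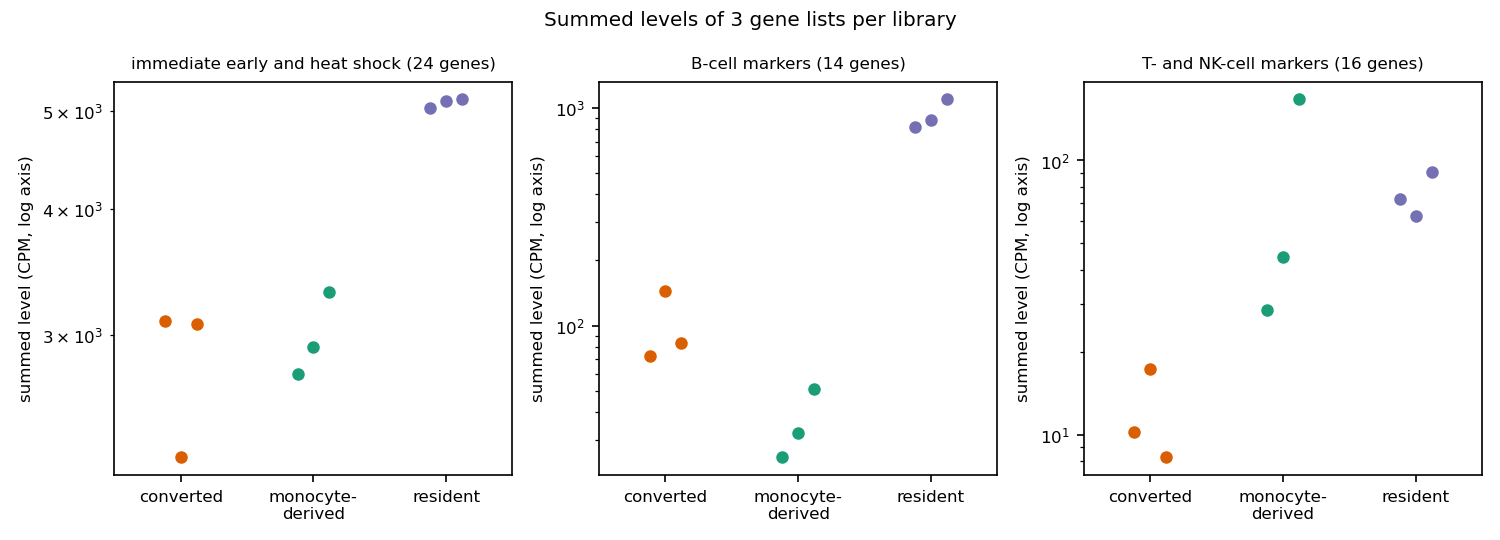
Summed levels of the immediate early, B-cell and T- and NK-cell lists in CPM (log axis) in the converted, monocyte-derived and resident libraries, with a point per library. Resident libraries lie highest for immediate early genes (5029 to 5129 CPM) and B-cell markers (817 to 1093 CPM).

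The genes whose pattern over the 9 libraries was most like that of Klf2 and Klf4 were taken from 6733 protein-coding genes with a mean of at least 20 CPM, by the root mean square difference of centred log2 CPM. For Klf2 they included Iqgap2 (0.11), Mfsd6 (0.13), Prr13 (0.15) and Numb (0.16). Iqgap2, a scaffold protein that binds actin, averaged 145 ± 32.0 CPM in converted, 56.1 ± 10.0 CPM in monocyte-derived and 146 ± 7.32 CPM in resident libraries. The nearest family member to Klf2 was Klf4, at 0.35. For Klf4 they were Avpi1 (0.14), Madd (0.15), St7 (0.16), Apbb1ip (0.17) and Naip5 (0.17). Klf10 stood at 0.14 from Klf4, about as near as the first of these, and Apbb1ip and Naip5 were also among the 5 genes nearest to Klf10. These distances describe 9 libraries that fall into 3 groups.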

How the data were processed

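Peritoneal macrophages sorted from 3 groups of mice gave 3 RNA-seq libraries each, prepared with the TotalScript low-input kit after RNeasy Mini or Micro extraction, per the labels' protocols. The authors deposited raw read counts per gene. The submitters' processing notes name TopHat2 2.1.0, HTSeq and GRCm38. The sources used here do not state the annotation, the strand setting, how reads with several alignments were treated, or the sort gates. Summary lines without a gene (4.02% to 5.66% of a library in no gene and 4.47% to 4.68% ambiguous) entered neither library sizes nor tests. Of 47729 identifiers, 47310 matched GENCODE mouse release M21, which gave symbols, coordinates and exon lengths. Promoter sequences are RefSeq's, on GRCm38.p6.

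The test was the robust quasi-likelihood F-test of edgeR 4.0.16 (R 4.3.3, limma 3.58.1) after filterByExpr (minimum count 10, minimum total 15) and TMM scaling. All 9 libraries entered 1 fit, which left 6 residual degrees of freedom. Benjamini-Hochberg adjustment ran over all 13223 genes tested, with a threshold of 0.05. Levels are CPM on TMM-scaled library sizes, and RPKM divides them by exon length in kilobases. Likeness of pattern used log2 of CPM plus 0.5. The scripts were tested on simulated data.

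The members, gene lists and tests were chosen with earlier results of these data known. Named genes are the 10 members, the other Krüppel-like factor genes, up to 3 called genes per list and direction with the largest change, and the leading marker of other cell types. Ctbp1, Csf1r, Adgre1, Lyz2, Gata6 and Ddx3y were added after their values were seen. The alternatives were other scalings and filters, limma-voom, DESeq2 1.42.0, a fit of protein-coding genes, fits of 2 groups, a replicate block, and each library left out. A few genes of the lists are counted but not reported by name here.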

Additional observations from a re-analysis of the deposited data

How the results depend on the processing

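Calls of Klf2, Klf4, Klf6, Klf7, Klf9 and Klf10 in both comparisons with monocyte-derived macrophages held under all 18 alternatives. Genes called for converted over resident numbered 803, against 480 with at least 5 CPM in 3 libraries, 530 with the replicate block, 2067 with a 2-group fit and 1364 with DESeq2, and 245 to 1628 with 1 library left out; leaving out monocyte-derived library 1 (1628) or any converted (354 to 535) or resident library (245 to 400) moved it by over 1.5 times. Members called lower in that comparison numbered 0 with the replicate block and 0 to 1 with a library left out. Members called higher for converted over monocyte-derived numbered 3 to 5 with a library left out, and 5 without monocyte-derived library 1, where Klf3 and Klf13 were added. The cause of these shifts was not tested, apart from the smaller number of samples or genes that some settings use.

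The replicate numbers showed no sign of pairing: same-numbered libraries of 2 groups correlated in their deviations at -0.09 to 0.07. Differently numbered ones correlated at -0.089 to 0.106. With 3 libraries a group these values cannot show that no pairing exists. With the replicate block, Klf6 in converted over resident was -0.44 (adjusted p = 0.0649), Klf3 in converted over monocyte-derived passed at 0.36 (adjusted p = 0.0402) and Klf13 in monocyte-derived over resident at -0.58 (adjusted p = 0.0416).

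Signs turned only for differences near 0 that passed in no setting. For converted over resident, Klf9 was -0.00085 with at least 5 CPM and -0.15 to 0.15 with a library left out, Klf11 was -0.012 with limma-voom and -0.084 to 0.27, Klf2 was -0.24 to 0.014, Klf10 -0.17 to 0.0018 and Klf3 -0.11 to 0.0030. For monocyte-derived over resident, Klf16 was -0.070 to 0.17. Other scalings moved the median of all genes to at most 0.07 in size. Tests of any difference over the 3 groups with DESeq2 and 2-group fits were not run.

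Leaving out each library was extended to the pathway and marker genes after seeing the data. Among the genes named above, at least 1 such fit ended the call of Btg2, Ccr7, Cd2, Dusp1, Gzma, Ier3 and Junb for converted over resident. The same held there for Klf12, Rbbp4, Rbbp7, Timd4, Tlr13 and Zfp36. Calls of Fos, Fosb, Foxo1, Mef2a, Rbbp4, Retnla, Tlr3, Tlr13 and Tsc22d3 likewise ended for converted over monocyte-derived. For monocyte-derived over resident those of Mef2d and Per1 did. Calls of other listed genes, not named here, also ended in such fits. Called differences that moved by over 1.5 times without ending included S1pr1 for converted over monocyte-derived, at 6.30 without monocyte-derived library 3, and Tgfb2 and Adgrb1, at 10.4 and 7.85 without monocyte-derived library 1.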
